A study of Mus musculus with 4 samples.

Results

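BCL2 family genes were examined in mouse morulae, the compacted embryos before the blastocyst, in which Nr1h2 had been knocked down. The 10 genes were chosen by symbol, as the BH3-only genes Bbc3, Pmaip1, Bcl2l11, Bid and Bad, the effector genes Bax, Bak1 and Bok, and the anti-apoptotic genes Bcl2l1 and Mcl1. Of these 10, 9 had a row among the 13658 genes of the authors' deposited table, and Bak1 is not analysed here. All 4 samples were wild-type embryos injected at the 1-cell stage with 4 to 5 pL of siRNA at 100 µM and grown in M16 medium. The 2 siNT samples received a non-targeting control pool. The 2 siNr1h2 samples received a pool against Nr1h2, the gene of the oxysterol receptor LXRβ. How many embryos a sample pooled, and whether replicates came from separate injections, is not stated in the labels. The spread between samples that enters the p-values may thus be technical. Without values per sample, a p-value cannot be set against the spread of its own gene.

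Proteins of the BCL2 family set whether the outer mitochondrial membrane stays intact. BH3-only proteins sense stress and bind the anti-apoptotic members or activate the effectors BAX and BAK, which then form pores, release cytochrome c and start the caspase cascade. In the mouse preimplantation embryo single cells are lost by this route, and loss of Mcl1 is lethal around implantation.

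None of the 9 members passed the test at an adjusted p of 0.05 in the authors' deposited table, where 1.98% of the 12069 genes with an adjusted p did. Bbc3 (PUMA) had the highest estimate, 2.80 times the siNT level (95% interval 1.47 to 5.35), with an adjusted p of 0.0701. The other 8 lay between log2 fold changes of -0.37 and 0.24. At an unadjusted p under 0.05 there were 2 of the 9, Bbc3 above 0 and Pmaip1 below, beside 12.0% of all 13658 genes. Neither count is read as a result about the family, since 9 genes are few.

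The table holds 1 comparison and no value per sample, so the spread of single samples cannot be shown. It gives for each gene a mean normalized count over the 4 samples, a log2 fold change of siNr1h2 over siNT with its standard error (SE), and a p-value. Over all genes the mean normalized count had a median of 142. Nr1h2 itself, in the authors' deposited table, fell 5.03 times in siNr1h2 morulae (3.89 to 6.50 as 95% interval; adjusted p = 3.61e-31). Of the tested genes 1.52% were called lower and 0.456% higher, 184 against 55. That split was 142 against 82 when fold changes were centred on genes with a mean of at least 500, and 442 against 36 when centred on ribosomal protein genes, which shifts every log2 value by 0.11. Of the morula markers 13 of 13 had a row, with a summed mean normalized count of 160497, of which 147367 was Dppa3. Krt8 was the 1 that was called, downward. At an unadjusted p under 0.05 there were 5 of the 13, 4 lower and 1 higher, beside 12.0% of all genes. Of the cumulus and granulosa markers 4 of 12 had a row, with a summed mean of 729, of which 694 was Nr5a2, a gene that embryos also express. None of 7 sperm markers had one, and of 7 blood and immune markers 3 had one, with a summed mean of 179. Whether other cells had a part in any result was not tested. Less RNA per cell and fewer cells of a kind cannot be told apart in such bulk samples.

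Bbc3 and Bax are shown with the bases upstream of an annotated transcript start, because both are textbook p53 targets and the estimates of both lay above 0. The choice thus used the estimates, and neither gene passed the test. Pmaip1, another p53 target, had an estimate below 0 and has no window to show. Whether p53 had a part was not tested. The windows hold 250 bases, 5′ to 3′ on the gene's strand, from RefSeq on GRCm38.p6, and no base of either lies in a GENCODE exon. They are chr7:16309333-16309582 on the plus strand for Bbc3, the first of its 3 windows, and chr7:45466899-45467148 on the minus strand for Bax. Capitals mark a match to the p53 consensus.
Bbc3: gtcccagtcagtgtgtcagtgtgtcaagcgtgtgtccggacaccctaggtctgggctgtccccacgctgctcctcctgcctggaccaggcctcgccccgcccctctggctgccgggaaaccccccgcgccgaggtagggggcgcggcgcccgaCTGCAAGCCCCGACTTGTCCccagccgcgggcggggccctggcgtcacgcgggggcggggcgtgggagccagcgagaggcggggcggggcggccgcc
Bax: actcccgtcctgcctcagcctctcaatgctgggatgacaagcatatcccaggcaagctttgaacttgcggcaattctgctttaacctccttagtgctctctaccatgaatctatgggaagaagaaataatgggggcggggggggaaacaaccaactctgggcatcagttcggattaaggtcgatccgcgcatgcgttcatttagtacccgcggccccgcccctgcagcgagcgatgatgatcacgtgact

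The p53 consensus of 2 adjoining decamers was searched with at most 3 mismatches and none in the cores, which follow the pattern CNNG with A or T in the middle. Bbc3 held 1 match, from base -97 to base -78 before the transcript start, with 3 mismatches. It was the only match in the 15 windows of the 9 members that have one in the table, Bak1 included and Pmaip1 not, and 0.475% of all 32851 windows held a match. In human PUMA a p53 element of this kind lies in the promoter. The nuclear receptor half-site AGGTCA, searched on both strands with overlaps allowed, was in 1 of the 15 windows, a Bcl2l1 window that lies in annotated exons, and in 14.0% of all windows. The DR4 element that LXR is known to bind is a pair of half-sites in one direction with a spacer of 4 bases. Searched without any mismatch, unlike the p53 consensus, it was in 0 of the 15 and in 0.0152% of all windows. An exact match is so rare that its absence from 15 windows decides nothing about LXR. A match describes letters only, and no match says nothing about binding in these windows or elsewhere.

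Levels between genes are given as the mean normalized count over all 4 samples per kb of annotated exon, in which a gene with many alternative exons comes out lower. On this scale Mcl1 and the 2 effectors with a row, Bax and Bok, were the most abundant of the 9 members. Bax, whose product forms the membrane pore, stood at 1838 per kb. Mcl1, the short-lived anti-apoptotic protein, followed at 778 and Bok, an effector-like gene with high RNA in reproductive tissue, at 626. For comparison, the quartiles of the 12920 protein-coding genes with a length were 9.01, 45.3 and 203 per kb.

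The BH3-only genes were lower on the per-kb scale. Pmaip1 (NOXA), whose product binds MCL1, stood at 204 per kb and Bad, whose product is held by 14-3-3 proteins when phosphorylated, at 200. Bid, which caspase-8 cleaves into its active form, stood at 78.9 per kb, and Bcl2l11 (BIM) at 41.6. Bbc3 was the lowest of the 9, at 22.0 per kb, which exceeds 38.0% of the 12920 protein-coding genes with a length. The anti-apoptotic Bcl2l1 (BCL-XL) stood at 42.8 per kb, close to the median gene and far under Mcl1. No spread over samples is to hand for these levels, so neighbours such as Pmaip1 and Bad, or Bcl2l1 and Bcl2l11, cannot be ranked.

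**Figure D1:**
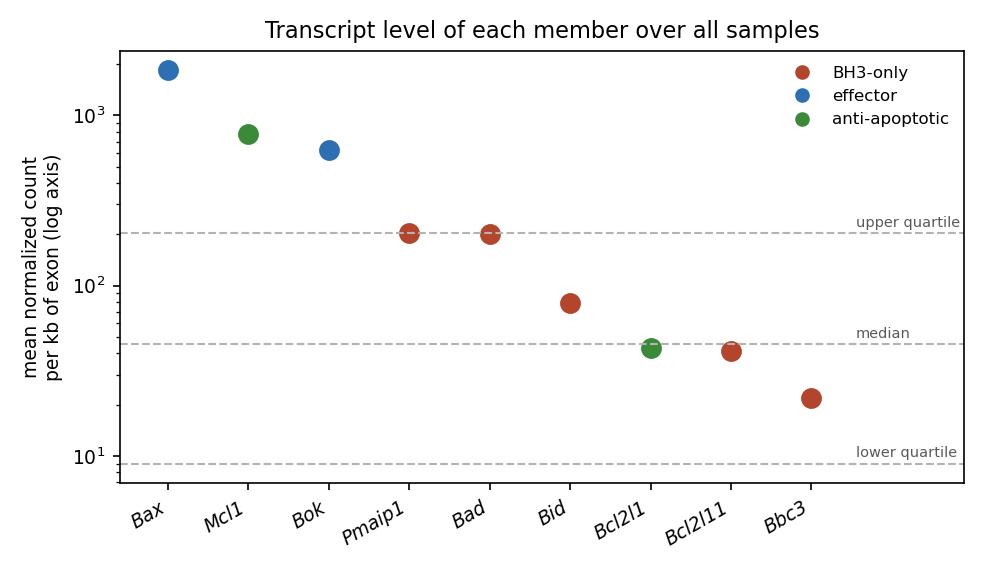
Mean normalized count over all 4 samples per kb of annotated exon (log axis) for the 9 members, coloured by class. Dashed lines are the quartiles of the protein-coding genes with a length. Bax, Mcl1 and Bok stand well above the upper quartile of 203, Pmaip1 and Bad lie at it, and Bbc3 is lowest at 22.0.

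Of the 5 BH3-only genes, 2 lay above 0 and 3 below, with a median log2 fold change of -0.11, beside 0.01 for all genes. Bbc3 had a mean normalized count of 39.9 and a log2 fold change of 1.49 ± 0.48 (SE) in the authors' deposited table, with an unadjusted p of 0.00178. At that SE a gene needed a change of 2.97 times to be called, just above the 2.80 times estimated. Among 2500 other genes within 2 times its mean, the median SE was 0.44, and 54 of them (2.16%) had a larger log2 fold change in either direction. The SE of Bbc3 was thus close to the median at its level, which does not show whether its own replicates agreed. Its estimate lay in the outer part of the range of those genes.

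Pmaip1, another p53 target, stood on the other side of 0. Its mean normalized count was 556 and its log2 fold change -0.37 ± 0.18 (SE) in the authors' deposited table (unadjusted p = 0.0363, adjusted p = 0.335), or 1.29 times lower (95% interval 1.02 to 1.64). The log2 fold change of Bbc3 exceeded that of Pmaip1 by 1.86 (95% interval 0.86 to 2.85), taking the errors of genes as independent. They are the highest and the lowest estimate among the members, and the interval is not adjusted for that, so it cannot be read as a test. Neither Bbc3 nor Pmaip1 passed the test. The other genes named here as p53 targets stood at 0.24 ± 0.14 (Bax), 0.11 ± 0.12 (Ccng1) and 0.11 ± 0.13 (Mdm2), none called. Whether p53 had a part was not tested.

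The other BH3-only genes had intervals that span 0. Bcl2l11, with a mean normalized count of 287, stood at 0.22 ± 0.20 (SE) on the log2 scale in the authors' deposited table (adjusted p = 0.708). The log2 fold change of Bid, at a mean of 173, was -0.22 ± 0.23 (adjusted p = 0.745). For Bad, at a mean of 479, it was -0.11 ± 0.17 (adjusted p = 0.836). Their 95% intervals reached at most 1.53 times higher, for Bcl2l11, and 1.59 times lower, for Bid. Exons of Bid and Bad overlap those of Bcl2l13 and Gpr137 on the other strand in the GENCODE annotation of GRCm38. The library kit keeps no strand, so shared reads cannot be assigned. Bcl2l13 had a mean normalized count of 717, larger than that of Bid, and a fold of 0.999 (95% interval 0.812 to 1.23) in the authors' deposited table. Gpr137 had a mean of 83.6 and a log2 fold change of 0.04 ± 0.33.

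Both effector genes with a row, Bax and Bok, lay above 0 and neither passed the test. In the authors' deposited table Bax, with a mean normalized count of 1594, stood at 1.18 times the siNT level (95% interval 0.977 to 1.43, adjusted p = 0.458). Bok, with a mean of 925, stood at 1.12 times (0.904 to 1.38, adjusted p = 0.728). At their precision, changes of 1.38 times for Bax and 1.43 times for Bok would have been called. Exons of Bax overlap those of Gm45808 on the same strand in the GENCODE annotation, and how reads of that stretch were counted is not given in the sources used here.

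Among the anti-apoptotic genes the estimates lay near 0. In the authors' deposited table Mcl1, the most highly counted member with a mean normalized count of 2659, had a fold of 1.03 (95% interval 0.853 to 1.24, adjusted p = 0.939). Its log2 fold change was 0.04 ± 0.14 (SE), and centring on ribosomal protein genes turned it to -0.06. Bcl2l1, with a mean of 166, was estimated at 1.07 times lower (95% interval 0.766 to 1.50 times lower, adjusted p = 0.916). Mcl1 was the member for which the smallest change, 1.37 times, would have been called, whereas Bcl2l1 needed 1.76 times.

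**Figure D2:**
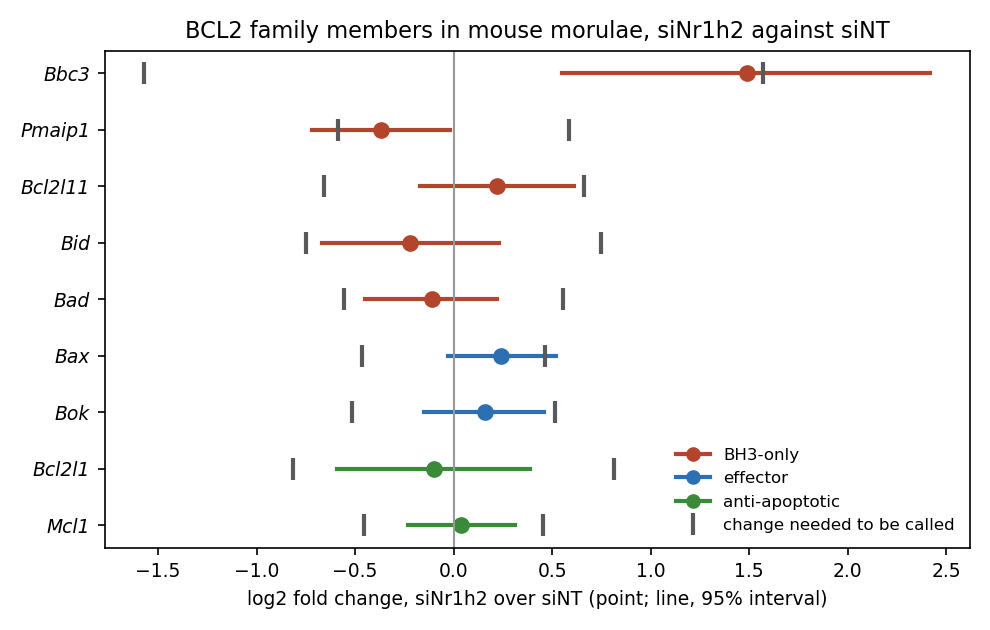
Log2 fold change of siNr1h2 over siNT for the 9 members (points) with 95% intervals (lines), coloured by class. Grey ticks mark the change each gene needed to be called, which no point reaches. Bbc3, at 1.49, comes nearest.

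Ordered by log2 fold change, the members ran Bbc3, Bax, Bcl2l11, Bok, Mcl1, Bcl2l1, Bad, Bid and Pmaip1. The 3 classes were interleaved in this order. Of the 8 pairs of neighbours, 1 had a 95% interval of the difference that excluded 0, that of Bbc3 over Bax (1.24, 95% interval 0.27 to 2.22). These intervals are not adjusted for the 36 pairs compared, and Bbc3 and Pmaip1 are the highest and the lowest of the 9. Over all 36 pairs, 11 intervals excluded 0, 8 of them with Bbc3 and 3 with Pmaip1 as the lower gene, against Bax, Bcl2l11 and Bok. The difference of Bax and Bcl2l1, a pair whose ratio is often quoted as a sign of readiness to die, was 0.34 on the log2 scale (95% interval -0.22 to 0.90). That of Bax and Mcl1 was 0.20 (-0.19 to 0.59). Mcl1 and its binding partner Pmaip1 differed by 0.41 (-0.03 to 0.85).

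**Figure D3:**
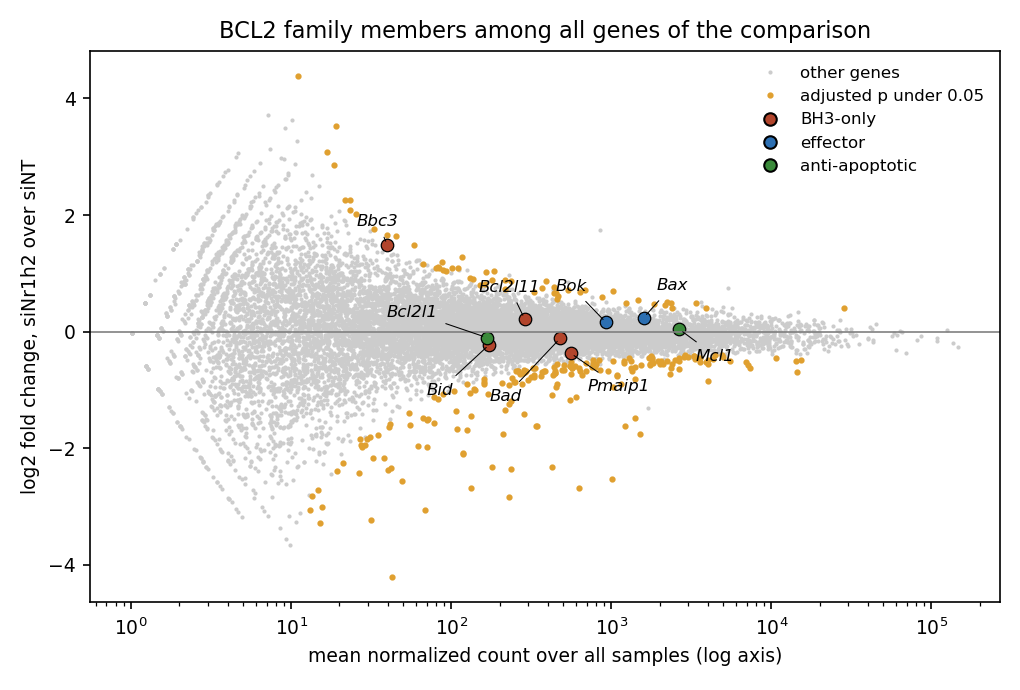
Mean normalized count (log axis) against log2 fold change of siNr1h2 over siNT for all 13658 genes, with the 239 called genes in orange and the 9 members outlined and named. Bbc3 lies at the upper edge of the uncalled genes of its level, and the other 8 members lie inside the cloud.

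Outside the 10 chosen genes, none of the other BCL2 family genes passed the test, beside 1.98% of all tested genes. Of 14 listed, 9 had a row, 8 of them with an adjusted p; Bcl2 and 4 Bcl2a1 genes are not analysed here. The BCL2-like gene Bcl2l12 came nearest, with a mean normalized count in the authors' deposited table of 75.2 and 2.09 times the siNT level (95% interval 1.32 to 3.30, adjusted p = 0.0652). At a threshold of 0.1, which 3.27% of tested genes passed, Bcl2l12 and Bbc3 both did. Exons of Bcl2l12 overlap those of Irf3 on the other strand, and Irf3 stood at 0.44 ± 0.30 (SE) in log2 fold change. Bcl2l14, the most highly counted of the rest with a mean of 967, stood at a log2 value of -0.28 ± 0.15 (adjusted p = 0.417). Bcl2l2 (BCL-W), an anti-apoptotic gene, stood at 0.63 ± 0.34 (adjusted p = 0.406) and the BH3-only gene Bmf at 0.60 ± 0.45 (adjusted p = 0.610). Bcl2l15 stood at 0.05 ± 0.59 at a mean of 21.6. Bik, Bcl2l10 and Hrk had means of 11.7, 9.91 and 4.44, too low for a change under 6.29 times to be called in Bik. Their log2 fold changes were -1.23 ± 0.80, -1.26 ± 0.86 and -1.91 ± 1.33, and Hrk had no adjusted p.

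None of the listed mitochondrial, caspase and IAP genes passed, beside 1.98% of all tested genes. Over all genes 51.0% lay above 0, and the counts below are not read as results about these lists. The mitochondrial list holds channel and membrane-shaping genes beside the released proteins. All 14 of its genes had a row, 6 above 0 and 8 below, with a median log2 fold change of -0.04. Cytochrome c itself (Cycs) had a mean normalized count of 11300 and a log2 fold change of -0.27 ± 0.13 (SE) in the authors' deposited table (adjusted p = 0.331). The IAP antagonist gene Diablo stood at -0.28 ± 0.13 (adjusted p = 0.343), the channel gene Vdac3 at -0.32 ± 0.13 (adjusted p = 0.204) and Opa1, which shapes the inner membrane, at 0.38 ± 0.19 (adjusted p = 0.367). Of 11 genes of the caspases and the apoptosome, 7 lay above 0, with a median of 0.05. The initiator adaptor Pidd1 stood at 0.39 ± 0.21 and the apoptosome scaffold Apaf1 at -0.23 ± 0.18. Of 5 IAP genes, which restrain caspases, 4 lay below 0, with Birc3 at -0.57 ± 0.27 (adjusted p = 0.341), Birc5 at -0.09, Xiap at -0.04 and Birc2 at -0.05.

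Of 19 kinases and adaptors that act on BH3-only proteins 1 was called, beside 1.98% of all tested genes. A count of 1 is not read as a result about the list. Ywhaq, which encodes 14-3-3θ, a protein of the family that holds phosphorylated BAD in the cytosol, was lower in siNr1h2 by 1.43 times (95% interval 1.20 to 1.69, adjusted p = 0.00599 per the authors' deposited table). Of the 19 genes, 10 lay above 0 and 9 below, beside 51.0% of all genes above 0. With Holm adjustment Ywhaq was not called, and its exons overlap the antisense gene Gm4419 in the annotation. The related genes Ywhaz, Ywhae and Ywhab did not pass and stood at log2 values of -0.17 ± 0.12, -0.15 ± 0.12 and -0.11 ± 0.11. In the same list the BAD kinase gene Pim3 stood at 0.62 ± 0.23 (adjusted p = 0.149), Dynll1, a dynein light chain that tethers BIM, at -0.27 ± 0.11 (adjusted p = 0.260) and Akt1 at -0.41 ± 0.25 (adjusted p = 0.495).

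Genes of MCL1 turnover had a median log2 fold change of -0.16, with 2 of 9 above 0 and 7 below, beside 51.0% of all genes above 0. Of the 7 with an adjusted p 0 were called, beside 1.98% of all tested genes. Usp13 and Fbxo4, both below 0, had means of only 5.45 and 4.81 and no adjusted p. These counts are not read as results about the list. Usp9x, which removes ubiquitin from MCL1, was estimated at 1.43 times lower (95% interval 1.15 to 1.77, adjusted p = 0.0565 per the authors' deposited table). The MCL1 ubiquitin ligase gene Huwe1 stood at -0.26 ± 0.12 (SE; adjusted p = 0.336), and the ligase genes Btrc and March5 at -0.16 ± 0.12 and -0.13 ± 0.14. Trp53 itself stood at 0.24 ± 0.15 (adjusted p = 0.507). It was among 10 transcription factor genes known to drive BH3-only genes, with a median of 0.19. Of these 8 lay above 0, beside 51.0% of all genes, and none passed, beside 1.98% of all tested genes. Trp73, with a mean normalized count of 8.31, stood at 2.52 ± 1.06 (adjusted p = 0.249), E2f1 at 0.35 ± 0.32 and Myc at 0.39 ± 0.36. The 6 genes that restrain p53 did not pass either. Sirt1 stood at -0.38 ± 0.14 (adjusted p = 0.168), Usp7 at -0.24 ± 0.12, and the p53 targets Ccng1 and Mdm2 both at 0.11 with an SE of 0.12 and 0.13.

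No gene listed under the death receptor pathway or under BH3-like and BCL2-binding proteins passed. Of 13 genes of the death receptor pathway 8 lay above 0. The adaptor Fadd stood at 0.75 ± 0.28 (SE) in the authors' deposited table (adjusted p = 0.158), Dedd at 0.26 ± 0.17, Tnfrsf21 at -0.43 ± 0.37 and Ripk1 at -0.40 ± 0.37. Of 12 genes listed as BH3-like or BCL2-binding 5 lay above 0. The mitophagy receptor gene Bnip3, the most highly counted of them with a mean of 14159, stood at a log2 value of -0.37 ± 0.13 (adjusted p = 0.109). Its paralogue Bnip3l stood at -0.19 ± 0.12, Moap1, whose product binds BAX, at -0.36 ± 0.23, and Ghitm at -0.15 ± 0.12. Over all 10 lists beside the members, 108 genes had a row and 103 an adjusted p; 1 was lower and 0 higher, where 1.98% of all tested genes were called, and 55 lay above 0, beside 51.0% of all genes.

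**Figure D4:**
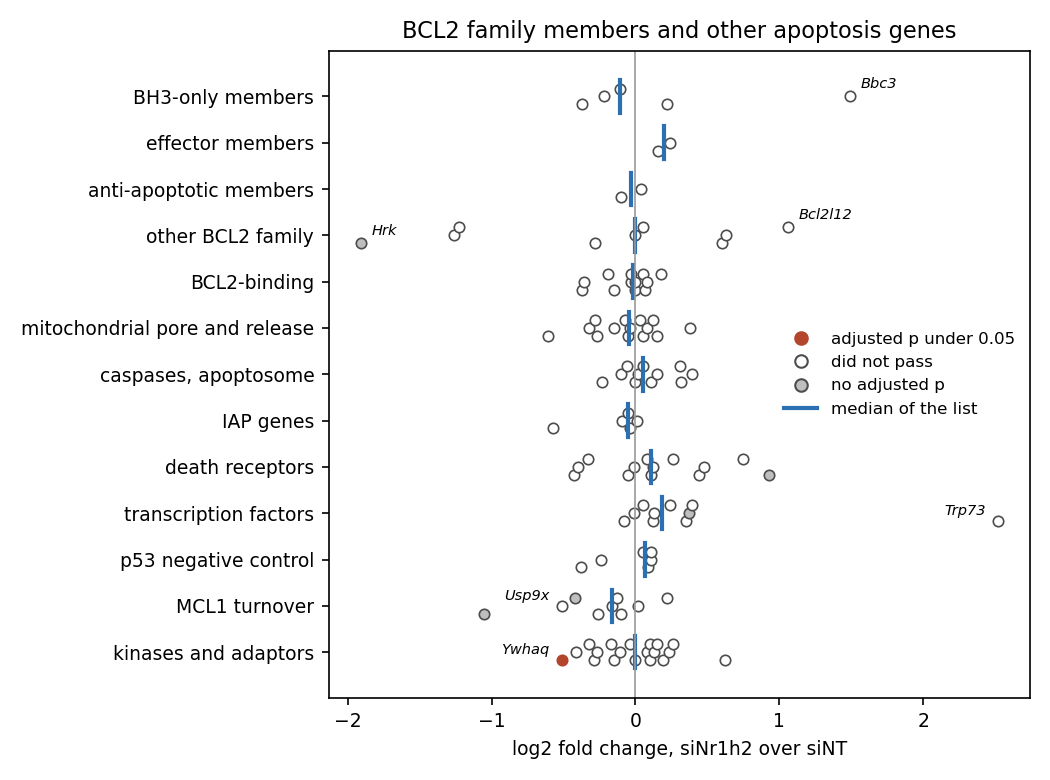
Log2 fold change of siNr1h2 over siNT for each gene of the 3 member classes and 10 further apoptosis lists, with the median of each list as a blue bar. The filled red point is Ywhaq, the 1 called gene, and grey points had no adjusted p.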

How the data were processed

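The 4 morula samples were sequenced from polyadenylated RNA with SMART-Seq v4 and Nextera XT, per the labels' protocols. The submitters' processing notes name STAR, HTSeq 0.12.4, RSEM, Cufflinks 2.2.1, edgeR, DESeq2 and the build mm9, with no role or order. The 1 file is the authors' DESeq2 comparison, per the file headers. Its deposited columns are a mean normalized count (a signal value, counts over size factors), a log2 fold change, its standard error and Wald statistic (each a score), a p-value and an adjusted p-value. The deposited values equalled an unshrunken Wald test with Benjamini-Hochberg adjustment over 12069 genes; 1589 genes with means up to 8.00 had no adjusted p. Depth per sample is unknown, and the file has 0 columns with values of single samples.

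Calls used an adjusted p under 0.05 over all genes. The change a gene needed to be called is 3.30, the smallest absolute Wald statistic among called genes, times its SE. Intervals are 1.96 SE. Those of differences between genes treat errors as independent. Exon lengths are unions of GENCODE vM21 exons (GRCm38) that are tagged basic and belong to protein-coding genes, matched by symbol for 94.6% of genes. Other genes have no length and enter no quartile or percentile per kb. Python 3.11.15, pandas 2.3.3 and scipy 1.17.1 were used, and the adjustments were tested on simulated fold changes. The members and lists were chosen with earlier results of these data known. Named are all members and other BCL2 family genes and, per further list, called genes and up to 4 with the smallest p; values of 2 genes that the rule names are not reported here. Alternatives varied the threshold, filter, adjustment, centring and distribution.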

Additional observations from a re-analysis of the deposited data

How the results depend on the processing

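At a threshold of 0.1 the count of members called was 1, Bbc3. It was 0 under both centrings. Adjustment over all genes with a p called 214 of the 239 genes of the main setting and added none, so its count of 0 says nothing. A threshold of 0.01, Holm adjustment and the t distribution can only remove calls, so a count of 0 there says nothing. Adjustment over means of at least 50 called 222 genes, 204 of them shared with the main setting. It left Bbc3 untested, and none of the other 8 members passed. Mcl1 turned to -0.06 when centred on ribosomal protein genes. All genes called numbered 109 at a threshold of 0.01, 395 at 0.1, 49 with Holm adjustment and 478 with ribosomal centring, against 239. Genes called in the other apoptosis lists numbered 1, and 3 at 0.1 (with Bcl2l12 and Usp9x), 2 when adjusted over means of at least 50 (with Usp9x), 0 with Holm adjustment and 6 with ribosomal centring. A t distribution with 2 degrees of freedom gave 0 calls for all genes, a design in which even Nr1h2 cannot pass, so this says nothing about stability. Centring moves each median by the same shift, and the anti-apoptotic median turned from -0.03 to 0.01 when centred on means of at least 500. Leaving out replicates was not run, since the table has no per-sample values. No paired analysis was possible because the table holds no value per sample. Bbc3 had the lowest mean normalized count of the members, 39.9, and the largest SE, 0.48, at which changes under 2.97 times could not be called.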
